A study of Sus scrofa with 20 samples.

Results

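Heat shock proteins and their co-chaperones were taken as every locus of the count table that carried exactly 1 pig gene symbol starting with HSPA, HSPB, HSPD, HSPE, HSPH, HSP90, DNAJ, BAG or CCT with a digit, FKBP, or HSF. The rule used names and no measured value, and it found 67 loci of 61 genes among 23483 loci, 9139 of which carried 1 symbol. Of the 67 loci, 65 passed the filter on low counts, which kept 21587 loci in all. The 2 others were FKBP6, a germ-cell isomerase with a median of 0.0687 FPKM (fragments scaled to transcript length and library size), and a second locus of HSPA4L, with a median of 0.781 FPKM. The symbol table held 98 pig symbols that fit the rule, and symbols without a locus of their own, among them HSPA8, HSPB1, HSPE1, HSPA1L and HSPA6, were not analysed here. DNAJC1 had 3 loci and DNAJC18, DNAJC25, FKBP9 and HSPA4L had 2 each, so reads of these genes may be divided between loci.

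The samples were backfat, the fat layer beneath the skin of the back, from 20 pigs of the Italian Large White breed, with one library from each of 10 females and 10 castrated males. The labels give the animals the same housing and diet, a slaughter weight of 150 to 160 kg and an age of 233 to 250 days, and tissue that was frozen in liquid nitrogen at a commercial slaughterhouse. Polyadenylated RNA was sequenced as paired reads of 100 bp. No animal was treated with heat or a drug as far as the labels say, so the comparisons made were females with castrated males, the slope on age, and the variation between animals.

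Chaperones hold unfolded proteins until they fold or are destroyed. HSP70 proteins (HSPA) do so in cycles that are started by J proteins (DNAJ) and ended by exchange factors such as HSPH1 and the BAG proteins; HSP90 finishes kinases and steroid receptors with the help of FKBP co-chaperones, and the CCT ring folds actin and tubulin. When unfolded protein builds up in the cytosol, the transcription factor HSF1 switches on a subset of these genes, called inducible here, while stress of the endoplasmic reticulum acts on another subset through other factors. In fat as elsewhere most of the remaining members are made at all times.

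Total counts ran from 25754778 in the library labelled female 10 to 51248122 in female 1, with a median of 36922247. The libraries labelled female 10 and castrated male 10 stood apart. At the 18 loci that separated the sexes when both were left out, the library labelled female 10 lay nearer the castrated male mean at 16, and the library labelled castrated male 10 nearer the female mean at 17, and none of the 18 was a chaperone locus. The count of sex calls and the median of the inducible log2 differences are therefore given with and without these libraries. The other values given by sex, such as ranges, medians and r within a sex, include both. The mitochondrial share of counts ran from 8.49% in castrated male 1 to 26.3% in the library labelled castrated male 10. Of 12 adipocyte markers 7 were measured, each with at least 3512 counts in every library, and their summed level was 4999 to 36520 CPM (counts scaled to library size with TMM, trimmed-mean, factors) in females and 1936 to 32890 CPM in castrated males. In bulk tissue, fewer cells of a type and less RNA per cell cannot be told apart.

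Levels can be compared between genes only per length, so they are given as FPKM, and each value is the median of 20 libraries. HSP90AA1, the inducible cytosolic HSP90, was highest with 475 FPKM and a range of 292 to 2081 FPKM. HSPA5, the HSP70 of the endoplasmic reticulum also called BiP, had 350 FPKM, and HSP90AB1, the constitutive cytosolic HSP90, had 343 FPKM. The inducible HSP90 exceeded the constitutive one per length in 19 of 20 libraries, with a ratio of 0.9996 in castrated male 3, a median of 1.5 and 3.24 in female 7. In CPM, which ignores length, the medians had the reverse order, 946 CPM for HSP90AA1 and 1090 CPM for HSP90AB1. The order thus depends on the transcript lengths behind FPKM. FKBP5, the HSP90 co-chaperone that damps glucocorticoid receptor signalling, had 196 FPKM, HSPD1, the mitochondrial chaperonin, had 195 FPKM, and HSP90B1, the HSP90 of the endoplasmic reticulum, had 156 FPKM. The 6 CCT subunits had medians from 62.9 FPKM for CCT4 to 139 FPKM for CCT7. CCT7 exceeded CCT4 in every library, with 131 against 51.6 FPKM in female 1 and 237 against 118 FPKM in female 7. The 7 genes of other J proteins had medians of 1.95 to 20.3 FPKM over 8 loci, and HSPB8, a small heat shock protein that works with BAG3 in selective autophagy, had 1.93 FPKM. Lower still among the tested loci were the minor loci of DNAJC1 (0.610 and 0.820 FPKM), the inducible HSPA4L (0.973 FPKM) and the second locus of DNAJC25 (1.61 FPKM).

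The 67 chaperone loci took 0.684% of counts in female 3 (95% Wilson interval 0.681% to 0.686%), a median of 0.937%, and 1.89% in female 7 (1.89% to 1.90%). The inducible genes alone, HSPH1, DNAJB1, DNAJA1, DNAJB4, BAG3, HSP90AA1, FKBP4 and both loci of HSPA4L, took 0.119% in female 1 (0.118% to 0.120%), a median of 0.232%, 0.864% in female 7 (0.861% to 0.867%) and 0.937% in female 4 (0.934% to 0.940%). These intervals cover counting error only. The inducible share was thus highest in female 4 and female 7, and the next was 0.472% in castrated male 2. How much of the family's variation lay in these loci without female 4 and female 7 was not tested. Between the highest and the lowest library, 51 of the 57 other tested loci differed by less than 3-fold, and each of the 8 tested inducible loci by 5.82-fold or more. The widest of the other loci were HSPB8 at 36.1-fold and HSPA4 at 5.37-fold. Over all loci with a mean of at least 10 CPM the median was 2.01-fold. The share of all loci under 3-fold is not given here, so the count of 51 does not set chaperones apart. Roles were chosen with earlier results of these data known, so this split is not an independent test.

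**Figure D1:**
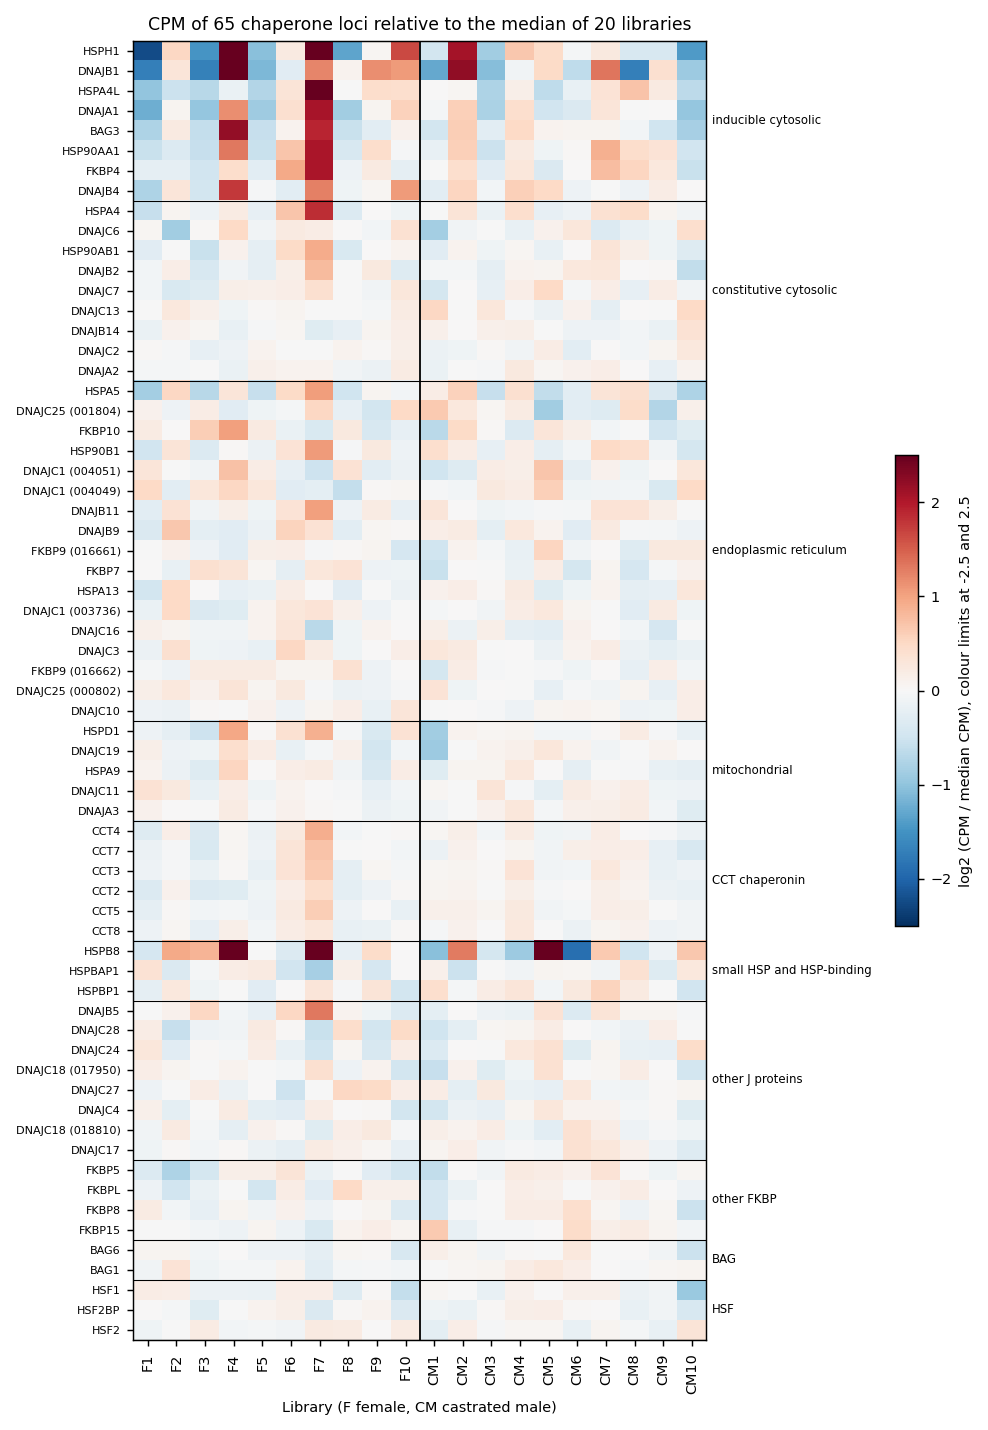
CPM of the 65 tested chaperone loci (rows, grouped by role, with the locus number in brackets where a gene has several) in 10 female (F) and 10 castrated male (CM) libraries (columns), as log2 of the ratio to the median of the 20 libraries. The inducible rows hold most of the strong colour, red in F4 and F7 (except HSPA4L in F4) and blue in F1 and F3. HSPB8 is highest in CM5 (26.9 CPM), and single cells stand out elsewhere. Examples are CCT4 in F7 (298 CPM, median 158 CPM) and HSF1 in CM10 (28.8 CPM, median 54.9 CPM). In FPKM HSF1 was nearer its median in CM10 (19.9 FPKM, median 21.7 FPKM).

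Spread was measured as the SD of log2 CPM after the means of females and castrated males were removed, over the 8769 loci with a mean of at least 10 CPM. The median SD of these loci was 0.262 and the 90th percentile 0.534, above which, by construction, 10% of loci lie. Of the 55 chaperone loci in this range, 9 (16.4%) were above it. They were all 8 inducible loci and HSPA5, so 1 of the 47 other loci was above it. HSPA4L reached a mean of 10 CPM only through female 7, and without that library 6 of 7 inducible loci were above the percentile. The roles were chosen with earlier results known, so these counts describe the set only. The locus just inside the threshold was HSPA5 with an SD of 0.562, and the one just outside was HSPA4, an HSP110-type exchange factor for HSP70, with 0.520. Without female 4 and female 7, 3 of 54 were above it, DNAJA1, DNAJB1 and HSPH1, and with all tested loci in place of those of at least 10 CPM it was 4 of 65. The spread of HSPH1 and DNAJB1 was in the most variable 10% in each of these settings.

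**Figure D2:**
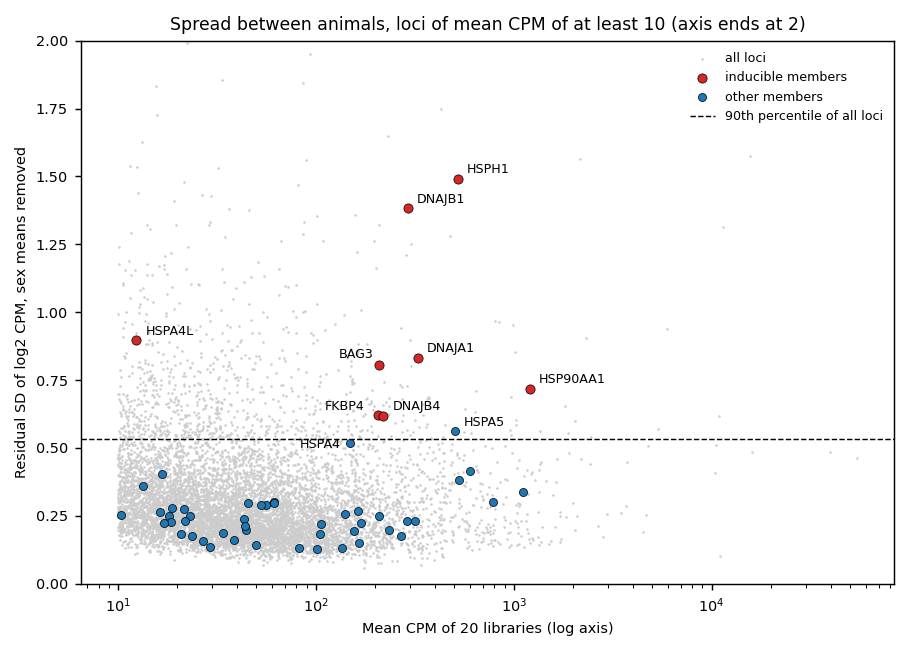
Residual SD of log2 CPM against mean CPM (log axis) for 8769 loci (grey), the 8 inducible loci (red) and the other chaperone loci (blue); the dashed line is the 90th percentile. All 8 red points and HSPA5 lie above the line, and HSPA4 lies just under it with an SD of 0.520.

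HSPH1, an HSP110 protein that recharges HSP70 with ATP, was the most variable chaperone, with an SD of 1.49 that exceeded 99.7% of the loci. In females its lowest, median and highest values were 57.5, 298 and 3235 CPM, and in castrated males 102, 234 and 1153 CPM. The groups overlapped, and the values at the top were female 4 (3235 CPM), female 7 (1568 CPM) and castrated male 2 (1153 CPM). DNAJB1, the J protein that directs HSP70 to aggregates, had an SD of 1.38, with 54.1, 203 and 1576 CPM in females, against 54.0, 141 and 820 CPM in castrated males. Its highest values were again in female 4 and castrated male 2, while female 7, with 411 CPM, stood below castrated male 7, with 445 CPM.

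DNAJA1, the farnesylated J partner of HSP70, had 123, 299 and 1198 CPM in females, against 147, 282 and 435 CPM in castrated males, with female 7 highest and female 4 next at 640 CPM. BAG3, the exchange factor that links HSP70 to autophagy, had 97.3, 158 and 768 CPM in females, against 93.5, 167 and 255 CPM in castrated males. The medians of BAG3 lay close together, and female 4 and female 7 (626 CPM) stood above all other libraries. DNAJB4, a relative of DNAJB1, had 101, 174 and 588 CPM in females, against 144, 174 and 263 CPM in castrated males. The order at the top of DNAJB4 was female 4, female 7 with 415 CPM and the library labelled female 10 with 362 CPM.

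HSP90AA1 had 636, 838 and 3908 CPM in females, against 652, 1037 and 1740 CPM in castrated males. FKBP4, an isomerase that carries steroid receptors on HSP90, had 120, 149 and 689 CPM in females, against 113, 185 and 284 CPM in castrated males. In both, the castrated males had the higher median and female 7 the highest value. HSPA4L, an HSP110-type protein, had 4.65, 8.69 and 80.8 CPM in females, against 5.40, 9.41 and 15.2 CPM in castrated males. Its high value came from female 7 alone, since the second highest library was castrated male 8 with 15.2 CPM, and without female 7 the locus had a mean of under 10 CPM.

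**Figure D3:**
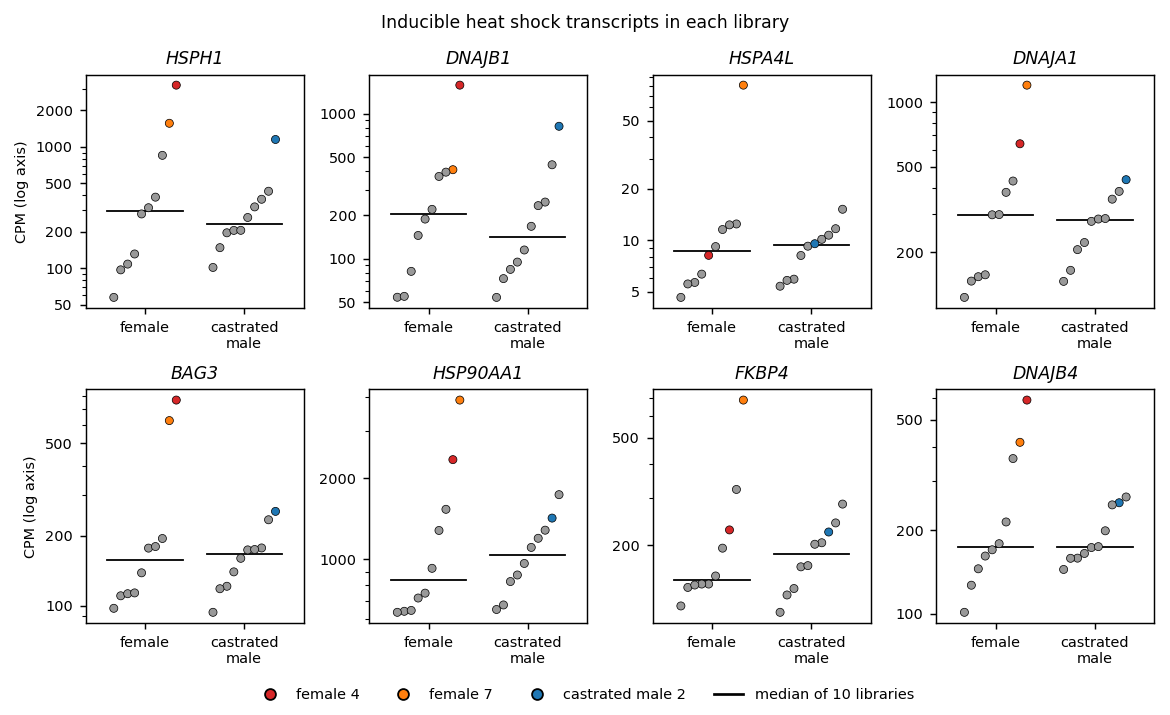
CPM (log axis) of the 8 inducible loci in 10 female and 10 castrated male libraries, with the median of each group as a line; female 4, female 7 and castrated male 2 are coloured. For HSPH1 the 3 coloured points are the 3 highest of 20 (3235, 1568 and 1153 CPM), and for HSPA4L female 7 (80.8 CPM) stands alone.

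The same few animals thus recurred. Over the 8 inducible loci female 4 was the highest library for HSPH1, DNAJB1, BAG3 and DNAJB4, and female 7 for DNAJA1, HSP90AA1, FKBP4 and HSPA4L. Castrated male 2 was among the 3 highest for 4 of them. Female 1 and female 3 were among the 3 lowest for 7 loci each and above the gene's median for 0 of 8. Female 4 was slaughtered at 243 days, female 7 at 249 days and castrated male 2 at 233 days. Leaving out female 4 and female 7, the ratio of the highest to the lowest library was 20.1 for HSPH1, against 56.3 over all 20, and 15.2 for DNAJB1, against 29.2. For BAG3 it was 2.72, against 8.21, and for HSPA4L 3.27, against 17.4. HSPH1 and DNAJB1 thus varied more than 10-fold between the 18 other animals, and DNAJA1, DNAJB4, BAG3, FKBP4, HSP90AA1 and HSPA4L by 2.72-fold to 3.58-fold.

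Female 4 and female 7 differed in which chaperones were high. Relative to the median of 20 libraries, HSPH1 was at 11.9-fold in female 4 and 5.78-fold in female 7, and DNAJB1 at 8.89-fold and 2.32-fold. The order was the other way for HSP90AA1, at 2.48-fold in female 4 and 4.13-fold in female 7, and for FKBP4, at 1.36-fold and 4.11-fold. HSPA4 was at 1.15-fold in female 4 and 3.59-fold in female 7, and HSPA4L at 0.886-fold and 8.76-fold. In the endoplasmic reticulum HSPA5 was at 1.24-fold in female 4 and 2.05-fold in female 7, and HSP90B1 at 1.02-fold and 2.1-fold, but the 17 loci of this compartment were divided. Of them 10 were higher in female 7 and 7 in female 4, the 7 including FKBP10 with 32.1 CPM in female 4 and 12.2 CPM in female 7, and DNAJC16 with 17.8 CPM and 11.8 CPM. HSPD1 was alike in both, at 1.97-fold and 1.86-fold, as was HSPB8 at 6.83-fold and 7.25-fold. Over all 65 tested loci, female 7 was the highest library for 18 and the lowest for 8, and female 4 the highest for 10 and the lowest for 0. These are 2 single libraries, and the difference between them has no replicate.

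**Figure D4:**
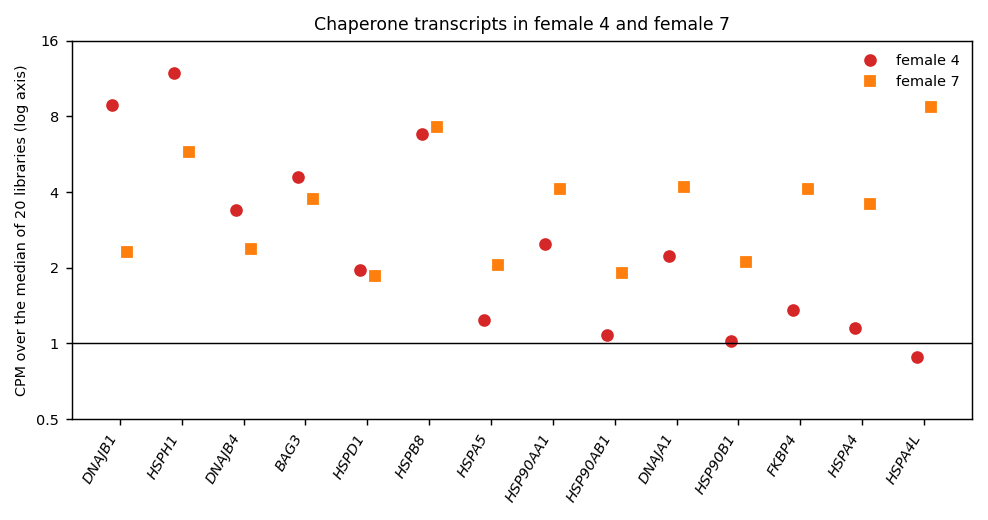
CPM of 14 chaperone loci in female 4 (circles) and female 7 (squares) over the median of 20 libraries (log axis), ordered by the ratio between these libraries. DNAJB1 and HSPH1 at the left are higher in female 4, and FKBP4, HSPA4 and HSPA4L at the right are higher in female 7.

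Other measures moved with these libraries. The summed level of 6 measured macrophage markers of 11 was 73.4 to 370 CPM in females, against 152 to 991 CPM in castrated males; female 7 was the lowest of the 20 and female 4 ranked 17th from the top with 153 CPM. The 7 measured T cell markers of 9 had sums of 17.9 CPM (female 7) to 52.4 CPM among females, against 21.9 to 72.2 CPM among castrated males, and CD28 was at 0 in female 7. The summed adipocyte markers were highest of all libraries in female 4 and 16th from the top in female 7 with 16230 CPM, but most of the sum was SCD, a fatty acid desaturase, with 28320 CPM in female 4 and 10150 CPM in female 7. Singly, 6 of the 7 were above their own median in female 4 and 2 of 7 in female 7, and those 2, CIDEC (1510 CPM) and CA3 (2891 CPM), had their highest value of all there. In castrated male 2, 7 of 7 adipocyte, 5 of 7 T cell and 0 of 6 macrophage markers were above their own median. The part of these cell types in the chaperone values was not tested.

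HSPH1 served as the index for 14 relations over the 20 libraries, computed on log2 CPM with two-sided permutation tests of 100000 resamples, whose smallest possible p is 1e-05, and Benjamini-Hochberg adjustment over the 14. Of these, 7 passed 0.05 by Pearson's r. BAG3 had r = 0.923 (p = 1e-05, adjusted p = 4.67e-05) and rho = 0.964 (p = 1e-05, adjusted 7e-05), and r = 0.894 without female 4 and female 7, the 2 libraries farthest from the median of HSPH1. DNAJA1 had r = 0.900 (p = 1e-05, adjusted p = 4.67e-05), rho = 0.929 (p = 1e-05, adjusted 7e-05) and r = 0.887 without those 2. DNAJB1 had r = 0.851 (p = 1e-05, adjusted p = 4.67e-05), rho = 0.806 (p = 2e-05, adjusted 9.33e-05) and r = 0.781 without them. The 3 co-chaperones thus followed HSPH1 in the 18 other animals as well, and also within females (r of 0.904 to 0.932) and within castrated males (r of 0.778 to 0.900).

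HSP90AA1 had r = 0.779 (p = 8e-05, adjusted p = 0.00028), rho = 0.771 (p = 0.00014, adjusted 0.00049) and r = 0.620 without the 2 libraries (adjusted p = 0.0169). HSPA5, which answers to stress of the endoplasmic reticulum, had r = 0.728 (p = 0.0002, adjusted p = 0.00056), rho = 0.746 (p = 0.00025, adjusted 0.0007) and r = 0.714 without them, with 0.788 in females and 0.638 in castrated males. The relations of HSPD1 and FKBP4 did not pass without female 4 and female 7. HSPD1 had r = 0.692 (p = 0.00089, adjusted p = 0.00208) and rho = 0.591 (p = 0.00717, adjusted 0.0167), but r = 0.372 without them (adjusted p = 0.180) and 0.287 in castrated males, against 0.820 in females. FKBP4 had r = 0.571 (p = 0.00989, adjusted p = 0.0198) and rho = 0.549 (p = 0.0135, adjusted 0.0237), r = 0.417 without them (adjusted p = 0.134), 0.586 in females and 0.501 in castrated males.

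The transcript of the regulator did not pass. HSF1 had r = 0.166 with HSPH1 (p = 0.484, adjusted p = 0.668) and rho = 0.281 (p = 0.227, adjusted 0.318), and HSF2, a related heat shock factor, r = 0.118 (p = 0.621, adjusted p = 0.668) and rho = 0.149 (p = 0.531, adjusted 0.573). FKBP5 had r = 0.124 (p = 0.601, adjusted p = 0.668) and rho = 0.181 (p = 0.446, adjusted 0.567). FOS, an immediate early gene, had r = -0.13 (p = 0.574, adjusted p = 0.668) and rho = 0.134 (p = 0.573, adjusted 0.573), and age had r = 0.0818 (p = 0.731, adjusted p = 0.731) and rho = 0.145 (p = 0.541, adjusted 0.573). The r of HSF1 was -0.08 in females and 0.592 in castrated males, and the difference between the sexes was not tested. The HSF1 transcript had an SD of 0.288, above the median of 0.262 of all loci, with 36.5 to 62.6 CPM in females, against 28.8 to 60.3 CPM in castrated males.

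Depth and RNA composition moved with HSPH1 as well. The mitochondrial share of counts had r = -0.48 (p = 0.0338, adjusted p = 0.0591) and rho = -0.52 (p = 0.0202, adjusted 0.0315), and r = -0.58 without the 2 farthest libraries (adjusted p = 0.0280). The total count had r = -0.41 (p = 0.0698, adjusted p = 0.109), rho = -0.57 (p = 0.0102, adjusted 0.0203) and r = -0.57 without the 2 (adjusted p = 0.0280), with -0.57 in females and 0.0354 in castrated males. Libraries of high HSPH1 thus tended to have lower totals and lower mitochondrial shares by rank, and the part of either in the chaperone values was not tested.

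Among the 6052 loci with a symbol and a mean of at least 10 CPM, the 10 whose residual log2 CPM over 20 libraries was most like that of HSPH1 included 5 other chaperones, BAG3 (r = 0.92), DNAJB4 (0.91), DNAJA1 (0.90), DNAJB1 (0.85) and HSP90AA1 (0.78). The other 5 were TRA2B (0.89), a splicing factor, ZFAND2A (0.86), a zinc finger protein known as an arsenite-inducible partner of the proteasome, TSC22D2 (0.78), BIRC3 (0.77), an inhibitor of apoptosis, and UBB (0.76), a polyubiquitin gene. The pattern of FKBP5 was shared with other loci, PPTC7 (0.83), TMX2 (0.81), EBPL (0.80), FAM13A (0.78) and VIPR1 (0.77), none of them a chaperone of the list.

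Within the inducible group the median r over 28 pairs was 0.79, and the lowest was 0.35 between DNAJB1 and HSPA4L. The 6 CCT subunits were at least as closely tied, with a median of 0.84 over 15 pairs and a range of 0.71 to 0.93, with a median SD of 0.212. The 6 pairs of mitochondrial members of at least 10 CPM had a median of 0.58. The medians of constitutive pairs (0.10), endoplasmic reticulum pairs (-0.08) and pairs of other J proteins (-0.08) lay near that of all pairs of the 8769 loci, 0.01. Single pairs of these groups ranged widely, from -0.62 to 0.89 for constitutive members, from -0.55 to 0.90 for endoplasmic reticulum members and from -0.58 to 0.80 for other J proteins. Each of these groups thus held closely tied pairs too. The points of each correlation share the same 20 libraries, so these values describe the set only.

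The constitutive cytosolic chaperones as a group varied about as much as other loci, with a median SD of 0.255 over 9 loci, beside 0.262 for all loci. HSP90AB1 had an SD of 0.339. It had 741, 1090 and 2085 CPM as its lowest, median and highest values in females and 871, 1057 and 1370 CPM in castrated males, and female 7 was its highest library. DNAJC7, which passes clients between HSP70 and HSP90, had 106, 144 and 181 CPM in females, against 102, 136 and 195 CPM in castrated males, and DNAJA2, a J partner of HSP70, 72.1, 80.1 and 93.9 CPM in females, against 70.4, 82.9 and 96.4 CPM in castrated males. Their groups overlapped over nearly the whole range. HSPA4, with 84.7, 123 and 454 CPM in females, against 110, 129 and 175 CPM in castrated males, was the widest of them through female 7. DNAJC6, the auxilin that uncoats clathrin vesicles, had an SD of 0.361 at 7.30 to 19 CPM. DNAJB2, DNAJB14, DNAJC2 and DNAJC13 had fold ranges of 1.45 to 2.65.

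In the endoplasmic reticulum, 17 loci of 13 genes had a median SD of 0.250. HSPA5 had 271, 489 and 1002 CPM in females, against 285, 481 and 729 CPM in castrated males. HSP90B1 had 347, 484 and 1017 CPM in females, against 359, 505 and 683 CPM in castrated males. In both, the highest library was female 7. FKBP9, a prolyl isomerase, was at 244, 279 and 349 CPM in females, against 195, 261 and 305 CPM in castrated males at its main locus, and FKBP10, which helps fold collagen, at 12, 17.1 and 32.1 CPM and 9.99, 15.5 and 22.1 CPM. DNAJB9, DNAJB11, DNAJC1, DNAJC3, DNAJC10, DNAJC16, DNAJC25, HSPA13 and FKBP7 made up the rest, with fold ranges of 1.40 to 2.84. DNAJC25 was counted low at its second locus, 49 to 157 reads per library.

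Of the mitochondrial members HSPD1 had 394, 562 and 1110 CPM in females, against 310, 564 and 654 CPM in castrated males, with female 4 (1110 CPM) and female 7 (1050 CPM) highest. HSPA9, the mitochondrial HSP70, had 241, 328 and 457 CPM in females, against 256, 311 and 381 CPM in castrated males. DNAJC19, a J protein of the import motor, had 40.7, 54.1 and 75.6 CPM in females, against 29.9, 57.8 and 68.7 CPM in castrated males. DNAJA3 and DNAJC11 had fold ranges of 1.51 and 1.52. The CCT subunits had a median SD of 0.212, and female 7 was the highest library for all 6, with 298 CPM of CCT4 against a median of 158 CPM over the 20 libraries and 335 CPM of CCT7 against 205 CPM.

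HSPB8 differed 36.1-fold between libraries, but at low counts, 32 to 1006 per library. It had 2.06, 3.29 and 19.9 CPM in females, against 0.745, 2.27 and 26.9 CPM in castrated males, and castrated male 5, female 7 and female 4 were its 3 highest libraries. Castrated male 5 was not high for the inducible loci as a whole, with 371 CPM of HSPH1 and 177 CPM of BAG3. HSPBP1, an HSP70 exchange factor, and HSPBAP1, a binding partner of a small heat shock protein, had SDs of 0.279 and 0.328.

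FKBP5 had 480, 704 and 1024 CPM in females, against 537, 845 and 1045 CPM in castrated males, which overlapped over most of their range. FKBP8, a mitochondrial anchor of BCL2, had an SD of 0.231, FKBP15 of 0.213 and FKBPL, at 2.44 to 4.80 CPM, of 0.251. BAG1, which releases HSP70 clients, and BAG6, which guards newly made membrane proteins, had SDs of 0.128 and 0.183. HSF2 and HSF2BP, a binding partner of HSF2, had SDs of 0.158 and 0.183. The J proteins of other or less settled function, DNAJB5, DNAJC4, DNAJC17, DNAJC18, DNAJC24, DNAJC27 and DNAJC28, had SDs of 0.177 to 0.381, with DNAJB5 the widest at 6.94 to 22.2 CPM.

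Females and castrated males were compared with edgeR's quasi-likelihood test over 21587 loci. At an adjusted p under 0.05, 0 of 65 chaperone loci were called, beside 0% of all loci, and at an unadjusted p under 0.05 it was 0 of 65, beside 4.33% of all loci. DESeq2 and limma on log2 FPKM likewise called 0 chaperone loci, as did the edgeR fit without the libraries labelled female 10 and castrated male 10. Of the 65 log2 differences, females minus castrated males, 41 were above 0 and 24 below, with a median of 0.03. Over all loci 10980 were above 0 and 10607 below, with a median of 0.00. The ranges of the 2 groups overlapped for all 65. The share of all loci with such an overlap is not given here, so this count does not set chaperones apart.

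All 8 inducible loci had a log2 difference above 0 with TMM and with upper-quartile factors, with a median of 0.53 in the TMM fit, and 7 of 8 did in DESeq2, where HSPA4L was at -0.12. HSPH1 averaged 703 ± 1004 CPM over 10 females and 339 ± 303 CPM over 10 castrated males (mean ± SD), and differed by 1.05 on the log2 scale (SE 0.629, edgeR adjusted p = 1). HSPA4L averaged 15.7 ± 23.1 CPM over females and 9.20 ± 3.04 CPM over castrated males, differing by 0.77 (SE 0.441). BAG3 averaged 252 ± 239 CPM over females and 165 ± 50.6 CPM over castrated males, differing by 0.61 (SE 0.358). DNAJB1 was at 0.58, DNAJA1 at 0.47, DNAJB4 at 0.35, HSP90AA1 at 0.32 and FKBP4 at 0.28. The direction rested on 2 animals, since without female 4 and female 7 all 8 were below 0, with a median of -0.19, HSPH1 at -0.28 (SE 0.494), DNAJB1 at -0.31 (SE 0.519) and BAG3 at -0.23 (SE 0.184), and again none was called (edgeR adjusted p = 0.999 for each). Without female 7 alone 5 of 8 were above 0, and without the libraries labelled female 10 and castrated male 10 all 8, with a median of 0.44.

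**Figure D5:**
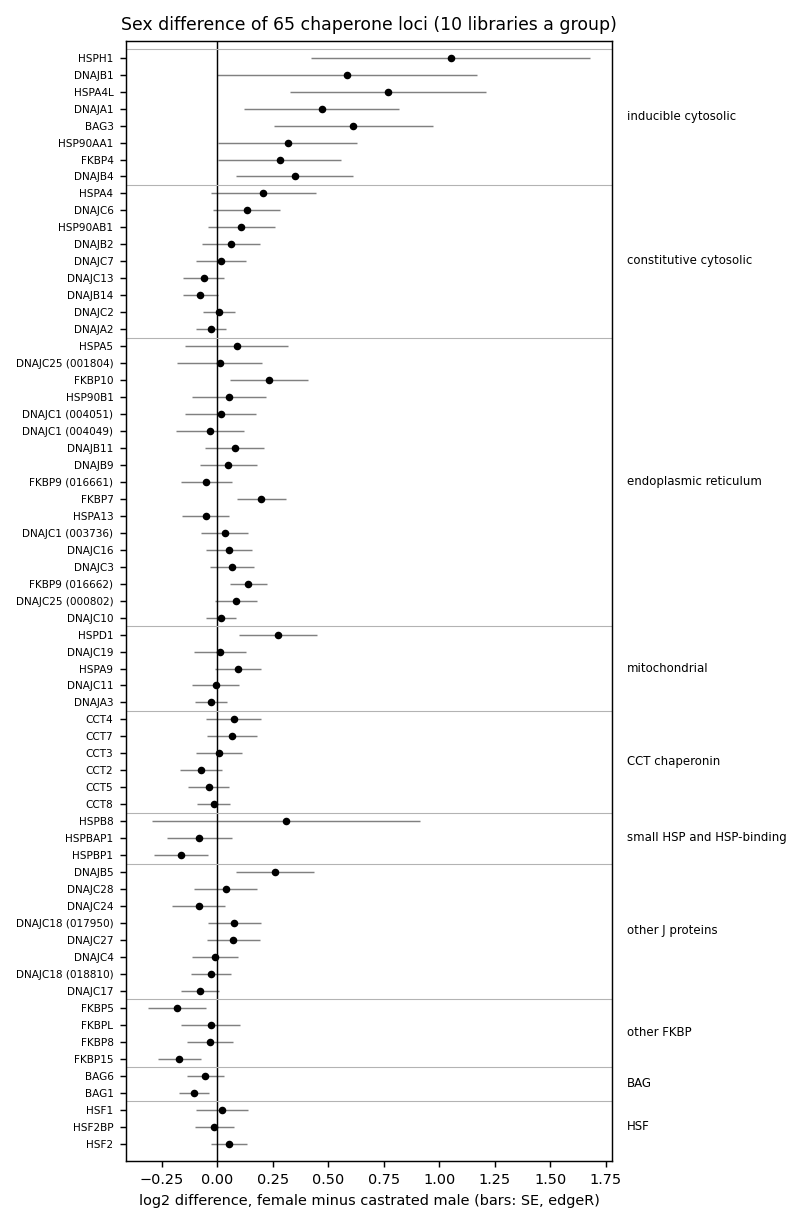
The log2 difference, female minus castrated male, of 65 chaperone loci by role, with bars of 1 SE from the edgeR fit of 10 against 10 libraries. The 8 inducible loci lie right of 0 with wide bars, from 0.28 for FKBP4 to 1.05 for HSPH1 (HSPA4L is at -0.12 in DESeq2), and most other loci lie within 0.25 of 0.

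The other groups lay close to 0. The 6 CCT subunits were 3 above and 3 below, with a median of -0.00, the 17 endoplasmic reticulum loci 14 above and 3 below with a median of 0.05, and the 9 constitutive loci 6 above and 3 below with a median of 0.02. Outside the inducible group the smallest unadjusted p-values belonged to FKBP7, at a log2 difference of 0.20 (edgeR p = 0.0870), FKBP15, at -0.17 (p = 0.0959), FKBP9, at 0.14 (p = 0.112), BAG1, at -0.11 (p = 0.134) and HSPD1, at 0.27 (p = 0.134), all with an adjusted p of 1. FKBP5 was at -0.18 (SE 0.130).

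Age spanned 233 to 250 days, and its slope was fitted with sex in the model and is given per 10 days. At an adjusted p under 0.05, edgeR called 0 of 65 chaperone loci, beside 0% of all loci, and at an unadjusted p under 0.05 it was 3 of 65 (4.62%), beside 5.51% of all loci, so the share was near the background. DESeq2 and limma called 0 of 65. The 3 were FKBPL, an FKBP-like protein, with a log2 slope of 0.33 (SE 0.124, edgeR adjusted p = 0.859), DNAJC7 with 0.27 (SE 0.10, adjusted p = 0.859) and DNAJC6 with 0.33 (SE 0.148, adjusted p = 0.867). Over the 65, 43 slopes were above 0 and 22 below, with a median of 0.07. Over all loci 10835 were above 0 and 10752 below, with a median of 0.00. All 6 CCT slopes were above 0, from 0.06 to 0.18. These loci were closely tied, and female 7, aged 249 days, was the highest library for all 6, so they are not 6 separate observations. Female 7 was also highest for HSPA4L and FKBP4, and slopes without it are not given here. The inducible loci did not share a sign, with HSPA4L at 0.88 (SE 0.474) and FKBP4 at 0.40 (SE 0.295) but DNAJB1 at -0.53 (SE 0.616) and HSPH1 at -0.24 (SE 0.666).

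Other genes of the same pathways were taken from lists by name. Of 18 further heat shock response genes 12 were measured, and 0 were called for sex or age. Their summed level ranked female 4 first with 5517 CPM, female 7 second with 5184 CPM and castrated male 2 as the third with 4020 CPM. This order rested on UBB: the sum of the 11 other genes was 1985 CPM in female 4, which ranked 5th, 2384 CPM in female 7, which ranked highest, and 2093 CPM in castrated male 2. Singly, 7 of 12 were above their own median in female 4, 9 in female 7 and 10 in castrated male 2. UBB had its highest value, 3533 CPM, in female 4, against a median of 1465 CPM over the 20 libraries. The HSP90 partners PTGES3 (437 CPM, median 153 CPM), PPID (105 CPM, median 35.4 CPM), CHORDC1 (39.8 CPM, median 13.2 CPM) and STIP1, which joins HSP70 to HSP90 (21.5 CPM, median 2.03 CPM), were all highest in female 7. ST13, STUB1, CDC37 and UNC45A had SDs of 0.221 to 0.280, near the 0.262 of all loci.

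Of 16 genes of endoplasmic reticulum stress 10 were measured and 0 were called in either comparison. Their sum was highest in female 7, with 2515 CPM, and HYOU1, an exchange factor for HSPA5 (214 CPM, median 96.0 CPM), CALR, a lectin chaperone (809 CPM, median 503 CPM), and XBP1, a transcription factor of this response (375 CPM, median 213 CPM), each had their highest value there. The list was divided, with 6 of 10 above their own median in female 7, 1 of 10 in female 4 and 10 of 10 in castrated male 2. In female 7 ATF6, a stress sensor (14.0 CPM, median 23.1 CPM), and SEL1L, a part of the degradation machinery (8.27 CPM, median 16.2 CPM), lay near their lowest values. Of 15 immediate early genes 8 were measured, with 0 called, and 2 of the 8 were above their own median in female 4 and 0 of 8 in female 7. In castrated male 2 it was 6 of 8. FOS was lowest of all in female 7 with 710 CPM and had 1229 CPM in female 4, against a median of 2035 CPM, and its r with HSPH1 was 0.436 without these 2 libraries and 0.479 in castrated males. ATF3, a stress-induced factor, was highest in female 4 with 522 CPM and had 79.0 CPM in female 7, and its r with HSPH1 was 0.66 over the 20 libraries. Of 11 glucocorticoid response genes 5 were measured and 0 were called.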

How the data were processed

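Per the submitters' processing notes, the tools were Cufflinks 2.1.1, TopHat2 2.0.8, Bowtie2 2.1.0.0 and DESeq2, and the genome build was Sscrofa10.2. Neither the role of each tool nor the annotation or the strand setting of the counts is given in the sources used here. As deposited by the authors, 1 table holds raw read counts for 23483 Cufflinks loci, and 2 more hold FPKM, of those loci and of 63418 isoforms. Symbols were matched by Ensembl identifier, and 3 loci that hold several symbols were left out and are not reported here. Isoforms were tied to loci where their FPKM summed to the locus FPKM within a relative tolerance of 0.0001. Members, roles and lists were chosen with earlier results of these data known.

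Counts were fitted with edgeR 4.0.16 (R 4.3.3; filterByExpr, TMM, Benjamini-Hochberg over all loci, threshold 0.05) on sex, and on age with sex in the model. Alternatives were DESeq2 1.42.0, limma 3.58.1 on log2(FPKM + 0.1) or log2(FPKM + 1) with and without a filter, upper-quartile factors, a prior count of 0.5, other minimum levels, females or castrated males alone, and leaving out libraries. log2 CPM used a prior count of 2. Permutations were drawn with numpy 2.4.6 and intervals computed with scipy 1.17.1. The mitochondrial share sums the loci of mitochondrially encoded genes, including loci that hold several of them. The fits were tested on simulated data. The genes named were all inducible and HSF loci, the 3 highest in FPKM and the 3 widest in spread of each other role, and up to 5 per direction of smallest p in each fit; the remaining loci are named with ranges only. The group of other J proteins was formed once the symbols with a locus were known. Library numbers follow the order of the samples and pair no animals. With 1 library per animal, the p-values rest on variation between libraries, in which the animal and the preparation of its library cannot be told apart.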

Additional observations from a re-analysis of the deposited data

Results flagged for a closer look

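For the 62 named chaperone loci, in females and in castrated males separately, the library at either end was taken as apart where its gap to the next exceeded 0.466 of the range of the 10. This value flags about 1 in 20 groups when the groups are independent and normally distributed, and 21 of 124 groups were flagged. The loci share the same libraries and were named partly for their spread. The 1 in 20 is therefore no chance rate for these groups, and an excess over chance was not tested. Among females, female 7 was apart and high for 10 loci, with 1198 CPM of DNAJA1, 689 CPM of FKBP4, 3908 CPM of HSP90AA1, 80.8 CPM of HSPA4L, 22.2 CPM of DNAJB5, 1017 CPM of HSP90B1, 233 CPM of CCT5, 298 CPM of CCT4, 454 CPM of HSPA4 and 104 CPM of DNAJB2. It was apart and low for DNAJC16, with 11.8 CPM. Female 4 was apart and high with 3235 CPM of HSPH1 and 1576 CPM of DNAJB1, and female 2 with 125 CPM of BAG1.

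Among castrated males, castrated male 2 was apart and high with 1153 CPM of HSPH1 and 820 CPM of DNAJB1, and castrated male 5 with 26.9 CPM of HSPB8. Castrated male 1, the library of the lowest mitochondrial share, was apart and low with 310 CPM of HSPD1 and 29.9 CPM of DNAJC19. The library labelled castrated male 10, of the highest mitochondrial share, was apart and low with 28.8 CPM of HSF1 and 74.1 CPM of BAG6. In FPKM these 2 were not so low there. HSF1 had 19.9 FPKM, against a median of 21.7 FPKM over the 20 libraries, and BAG6 had 37.5 FPKM, against 37.4 FPKM. The part of these shares in the values was not tested.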

How the results depend on the processing

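The count of chaperone loci called stayed at 0 for sex and for age under every alternative run. Over all loci, the count called for sex was 0 in edgeR, 6 in DESeq2, 12 and 11 in limma on log2(FPKM + 0.1) and log2(FPKM + 1), 12 without the filter and 18 without both libraries numbered 10; leaving out 1 library gave 0 to 13, with 13 without the library labelled female 10 and 7 without that labelled castrated male 10. For age it was 5 in DESeq2 and 1 in each limma fit, and leaving out 1 library gave 0 to 1. Of 744 sex and age log2 values of 62 named chaperone loci under the alternatives, 107 had another sign and 0 passed the threshold. Chaperone loci in the most variable 10% numbered 4 with no minimum level and 3 without female 4 and female 7, which was chosen after seeing the data; leaving out 1 library gave 6 (without female 7) to 10. Relations with HSPH1 past the threshold numbered 7 over all libraries and 3 in castrated males alone. The cause of these shifts was not tested. No paired analysis was possible because the labels carry no replicate numbers shared between the groups. Loci at a few CPM rest on few reads, at the lowest 32 for HSPB8, and reads of near-identical or overlapping genes may be divided in a way the sources used here do not give.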

Other observations

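Isoform FPKM could be tied to 65 of the 67 chaperone loci, and 13 of these had 1 isoform, among them HSP90AA1, FKBP4 and CCT2. The median was 3 isoforms and the most was 13, for HSPH1, FKBP5 and 1 locus of DNAJC18. DNAJA1 was carried almost wholly by its main isoform, which made up 95.1% ± 3.37 of its FPKM (SD, n = 20), and DNAJB1 had 88.4% ± 4.36, HSP90B1 88.5% ± 1.54 and HSP90AB1 77.7% ± 3.44 in theirs. The main isoform of HSPH1 made up 20.8% on average. That of BAG3 made up 63.1% ± 13.8, with 22.4% in the library labelled female 10. Of the 52 tested chaperone loci with 2 or more isoforms, the lowest or highest share of the main isoform fell in the library labelled castrated male 10 for 17 and in the library labelled female 10 for 10, and in no other library for more than 13, which was female 7.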
